A study of Mus musculus with 2 samples.

Results

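The 37 genes described here make red blood cells: transcription factors that start the erythroid programme, the receptors and carriers that bring in growth signals and iron, the enzymes of haem synthesis, the proteins of the red cell membrane, and the globins. They were listed by name and not by their values, and 36 of them had a row in a table of 54531 mouse genes. No row was matched to Ahsp, the chaperone of free alpha globin, which was not analysed here. The RNA came from cells labelled as haematopoietic stem cells (HSCs), the cells from which all blood lineages arise, from mouse bone marrow. The first group was Cdh5-Cre;Angptl2fl/fl, in which Cre recombinase driven by the promoter of the endothelial cadherin gene Cdh5 acts on floxed alleles of Angptl2, a secreted angiopoietin-like protein, and which by its labels lacks the gene in endothelial cells. The second group was Angptl2fl/fl, the floxed alleles alone by title and genotype, although its description names Cdh5 and Cre and no floxed allele, so whether those mice carried Cre is not settled by the labels. Each group was 1 library, called here the deletion sample and the control sample, and the sources used here give no age, strain or number of mice. As background, Cdh5 is also active in the embryonic endothelium from which HSCs arise, and whether Angptl2 was intact in the HSCs themselves is not stated.

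In red cell formation, the transcription factors GATA1 and KLF1 switch on the receptor for erythropoietin, the haem enzymes, the globins and the membrane proteins. Early erythroid progenitors already carry the factors, the erythropoietin receptor and carbonic anhydrase 1. The erythroid form of the first haem enzyme, the globins and the anion exchanger of the membrane accumulate later, in the erythroblasts that precede red cells.

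Levels are FPKM (fragments divided by gene length and by the size of the library), as deposited by the authors. Depth was 16843100 fragments in the deletion sample and 17378600 in the control sample, worked out from the step size of the values. The commonest number of fragments among detected genes was 6 in the deletion sample (453 genes) and 1 in the control sample, where 1389 genes had it, against 295 in the deletion sample. Because of this, 95% counting intervals were computed from all fragments and again with the fragments of both libraries divided by 6. The intervals hold counting error alone, and copies of 1 molecule made by PCR may have been counted as separate fragments. With 1 library a genotype no test was possible, "higher" and "lower" compare these 2 libraries, and Angptl2 itself, at 0.18 FPKM in the deletion sample and 0.27 in the control sample (19 fragments in deletion and 29 in control cells), was too low to check the labels. In bulk RNA, fewer cells of a type and less RNA per cell cannot be told apart.

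The libraries labelled as HSCs were rich in erythroid progenitor mRNA. Car1 (carbonic anhydrase 1, chromosome 3, 14766216 to 14808368, minus strand, GRCm38) stood at 1629 FPKM in the deletion sample and 1315 FPKM in the control sample, which is rank 16 among protein-coding genes in the deletion sample and rank 18 in the control sample. Kit, the stem cell factor receptor shared by HSCs and early progenitors, stood at 48.8 FPKM in the deletion sample and 54.3 in the control sample. Slamf1, a surface marker of HSCs, stood at 0.55 FPKM in the deletion sample and 0.40 in the control sample. The erythroid and haem genes together made up 1.14% of all FPKM in the deletion sample and 1.19% in the control sample.

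Of the 36 genes with a row, 33 had a mean of at least 1 FPKM and are called measured. Their log2 ratios, deletion over control on the log2(FPKM + 1) scale, had a median of -0.12, against -0.01 over all 12325 genes at that level. None of the 33 was at least 2-fold higher, where 2.47% of all genes were, and 1 was at least 2-fold lower, Alas2, where 3.38% of all genes were (5.86% in either direction). Among protein-coding genes alone, to which every measured member belongs, these shares were 0.488% and 0.752% (1.24% in either direction). A log2 ratio below 0 was found for 25 of the 33, against 51.6% of all genes and 52.1% of protein-coding genes. A limit of 0.5 on the log2 scale, chosen after the values were seen, left 6 lower genes, Slc4a1, Sptb, Alas2, Hba-a2, Hbb-bs and Hbb-bt, and 1 higher gene, Alas1. Sptb passed this limit narrowly, at -0.501. Centring on the median of all genes put Sptb at -0.490 and trimmed-mean scaling at -0.493, inside the limit. Setting both samples to the same total put Sptb at -0.66, and scaling without mitochondrially encoded genes at -0.57. Of all genes 7.73% lay at or below -0.5 and 7.32% at or above 0.5, and of protein-coding genes 4.16% and 3.9%. Of the 19 members with a mean above 50 FPKM, Hbb-bs was lowest at -0.81, and the other 18 lay between -0.36 and 0.31.

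**Figure D1:**
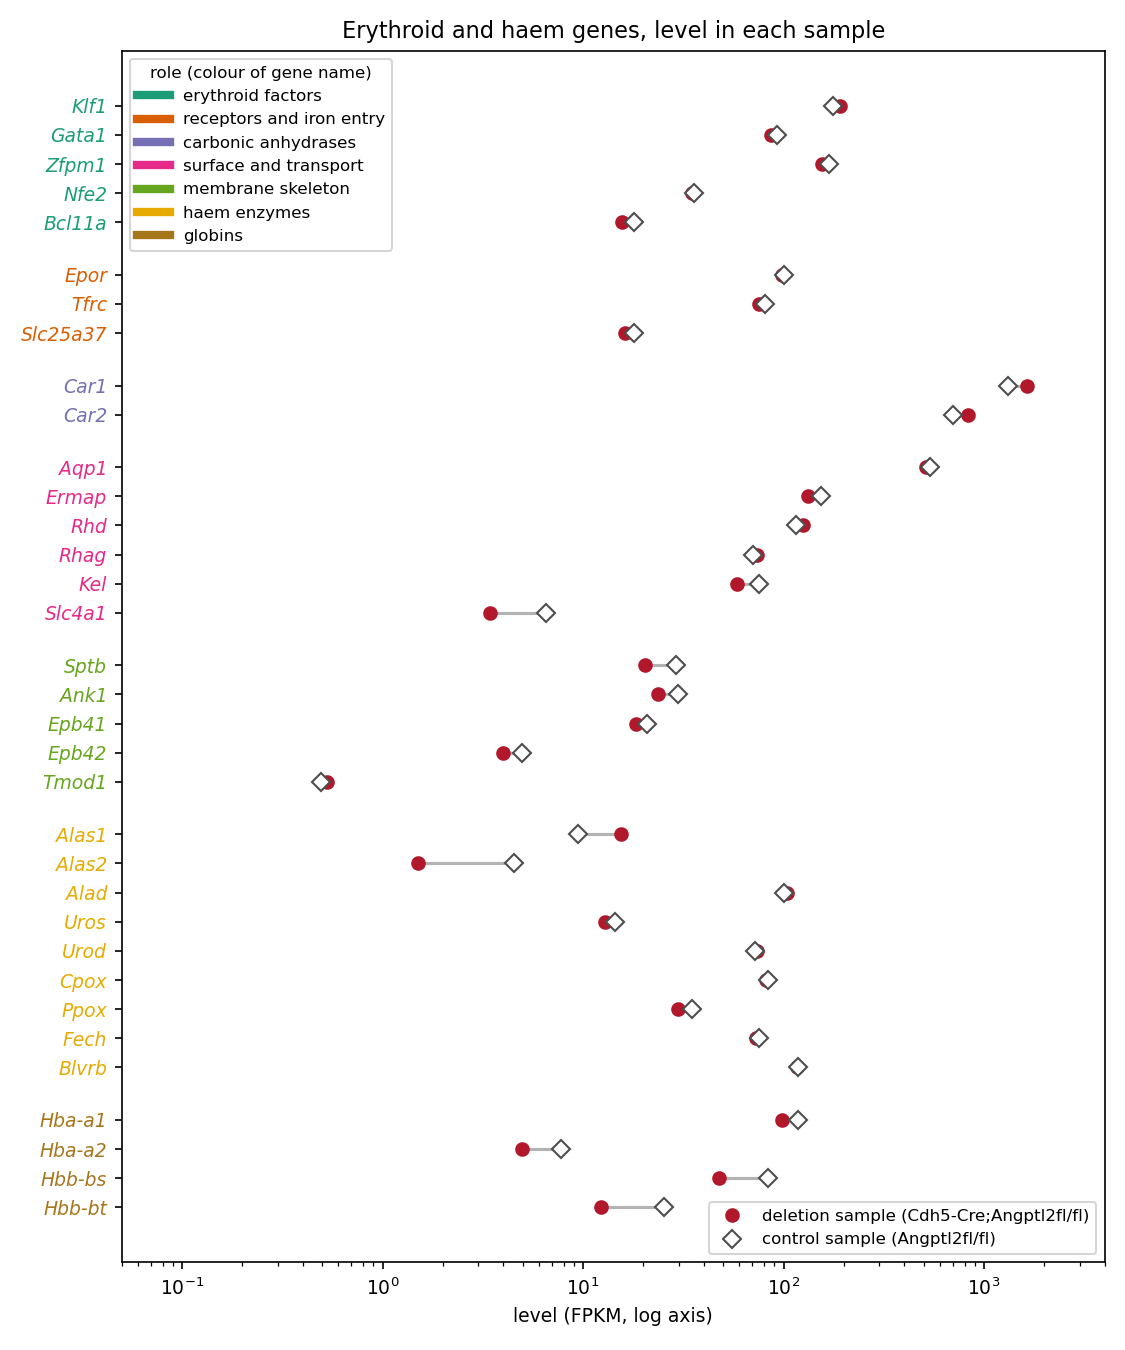
Level of each erythroid and haem gene above 0 in FPKM (log axis), with filled circles for the deletion sample and open diamonds for the control sample, 1 library each. The markers nearly coincide for the factors and for most haem enzymes, while Alas2, Slc4a1 and the beta globins stand apart with the deletion sample lower and Alas1 with the deletion sample higher.

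The erythroid transcription factors were close in the 2 libraries. Klf1, which activates the adult beta globin gene, stood at 190.6 FPKM in the deletion sample and 175.7 FPKM in the control sample. Gata1, the central erythroid factor, stood at 86.9 FPKM in deletion and 92.9 FPKM in control cells, and Zfpm1 (FOG1), its cofactor, at 155.6 FPKM in the deletion sample and 168.8 FPKM in the control sample. Nfe2, which binds the distant enhancers of the globin genes, stood at 35.03 FPKM in the deletion sample and 35.9 in the control sample. Bcl11a, a repressor of embryonic globin genes that also acts in stem and lymphoid cells, stood at 15.7 FPKM in deletion and 18.0 FPKM in control cells, and its log2 ratio of -0.19 was the furthest from 0 of the 5. Their median log2 ratio was -0.09, and the counting interval of Klf1, 0.06 to 0.18 from all fragments, took in 0 with fragments divided by 6 (-0.03 to 0.26). With that division the intervals of Gata1 and Nfe2 also included equality. Those of Zfpm1, -0.22 to -0.02, and Bcl11a, -0.36 to -0.04, stayed below it. Klf1 was higher in the deletion sample as deposited but lower, at -0.03, when both samples were set to the same total.

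Receptors and iron entry were close as well. Epor, the erythropoietin receptor that keeps erythroid progenitors alive, stood at 97.8 FPKM in the deletion sample and 100.9 FPKM in the control sample. Tfrc, the transferrin receptor that takes up iron, stood at 75.6 FPKM in deletion and 80.5 FPKM in control cells, and Slc25a37 (mitoferrin 1), which carries iron into mitochondria, at 16.2 FPKM in deletion and 17.9 FPKM in control cells. With fragments divided by 6, the counting intervals of all 3 included equality.

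The carbonic anhydrases were higher in the deletion sample, unlike most of the list. Car1 was 1.24-fold higher in the deletion sample, from 34251 fragments in deletion and 28519 in control cells, and the interval of its log2 ratio with fragments divided by 6 was 0.25 to 0.37. Car2, which interconverts carbon dioxide and bicarbonate in red cells and elsewhere, was 1.18-fold higher, at 831.6 FPKM in deletion and 703.3 FPKM in control cells, with an interval of 0.19 to 0.30. Along with Alas1 they were the only members with a log2 ratio above 0 under each of the 5 scalings tried, the deposited one included. Alad, Klf1, Rhag, Rhd and Urod were above 0 as deposited and below 0 when both samples were set to the same total. The 25 members below 0 as deposited were below 0 under all 5. The other scalings shift all genes nearly alike, moving the median of all genes by -0.15 to 0.01, so this agreement is not separate support.

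Among surface and transport proteins the gap was wide for 1 gene. Slc4a1 (band 3, chromosome 11, 102348824 to 102366203, minus strand), the anion exchanger that is the most abundant membrane protein of mature red cells, stood at 3.44 FPKM in the deletion sample and 6.56 FPKM in the control sample. That is 1.91-fold lower from 283 fragments in deletion and 558 in control cells, with an interval of -1.15 to -0.73, or -1.48 to -0.42 with fragments divided by 6. Kel, the Kell blood group protease, stood at 58.9 FPKM in deletion and 75.7 FPKM in control cells, and Ermap, the Scianna blood group protein, at 133.0 FPKM in deletion and 153.9 FPKM in control cells. Both stayed below equality with fragments divided by 6, at -0.54 to -0.19 and -0.30 to -0.12. Aqp1, the water channel, was abundant and close, at 513.9 FPKM in deletion and 539.7 FPKM in control cells. Its interval with fragments divided by 6, -0.135 to -0.007, also stayed below equality. Rhd and Rhag form the Rh complex, with Rhd at 125.6 FPKM in deletion and 114.9 FPKM in control cells and Rhag at 73.5 FPKM in deletion and 70.3 FPKM in control cells. The log2 ratios of this group therefore ran from -0.77 for Slc4a1 to 0.13 for Rhd.

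All 4 measured genes of the membrane skeleton, the spectrin net under the red cell membrane, were lower in the deletion sample. Of protein-coding genes 52.1% were lower. Sptb (beta spectrin) stood at 20.3 FPKM in the deletion sample and 29.1 FPKM in the control sample. Ank1 (ankyrin 1, which ties spectrin to band 3) stood at 23.7 FPKM in deletion and 29.8 FPKM in control cells. Epb41 (which joins spectrin to actin) stood at 18.3 FPKM in deletion and 20.8 FPKM in control cells, and Epb42 (which binds band 3 and ankyrin) at 4.0 FPKM in deletion and 4.97 FPKM in control cells. The interval of Sptb with fragments divided by 6 was -0.66 to -0.38, that of Ank1 -0.46 to -0.21 and that of Epb41 -0.32 to -0.05. The interval of Epb42 with that division included equality. Tmod1, which caps actin filaments, was under the minimum at 0.53 FPKM in deletion and 0.50 FPKM in control cells.

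**Figure D2:**
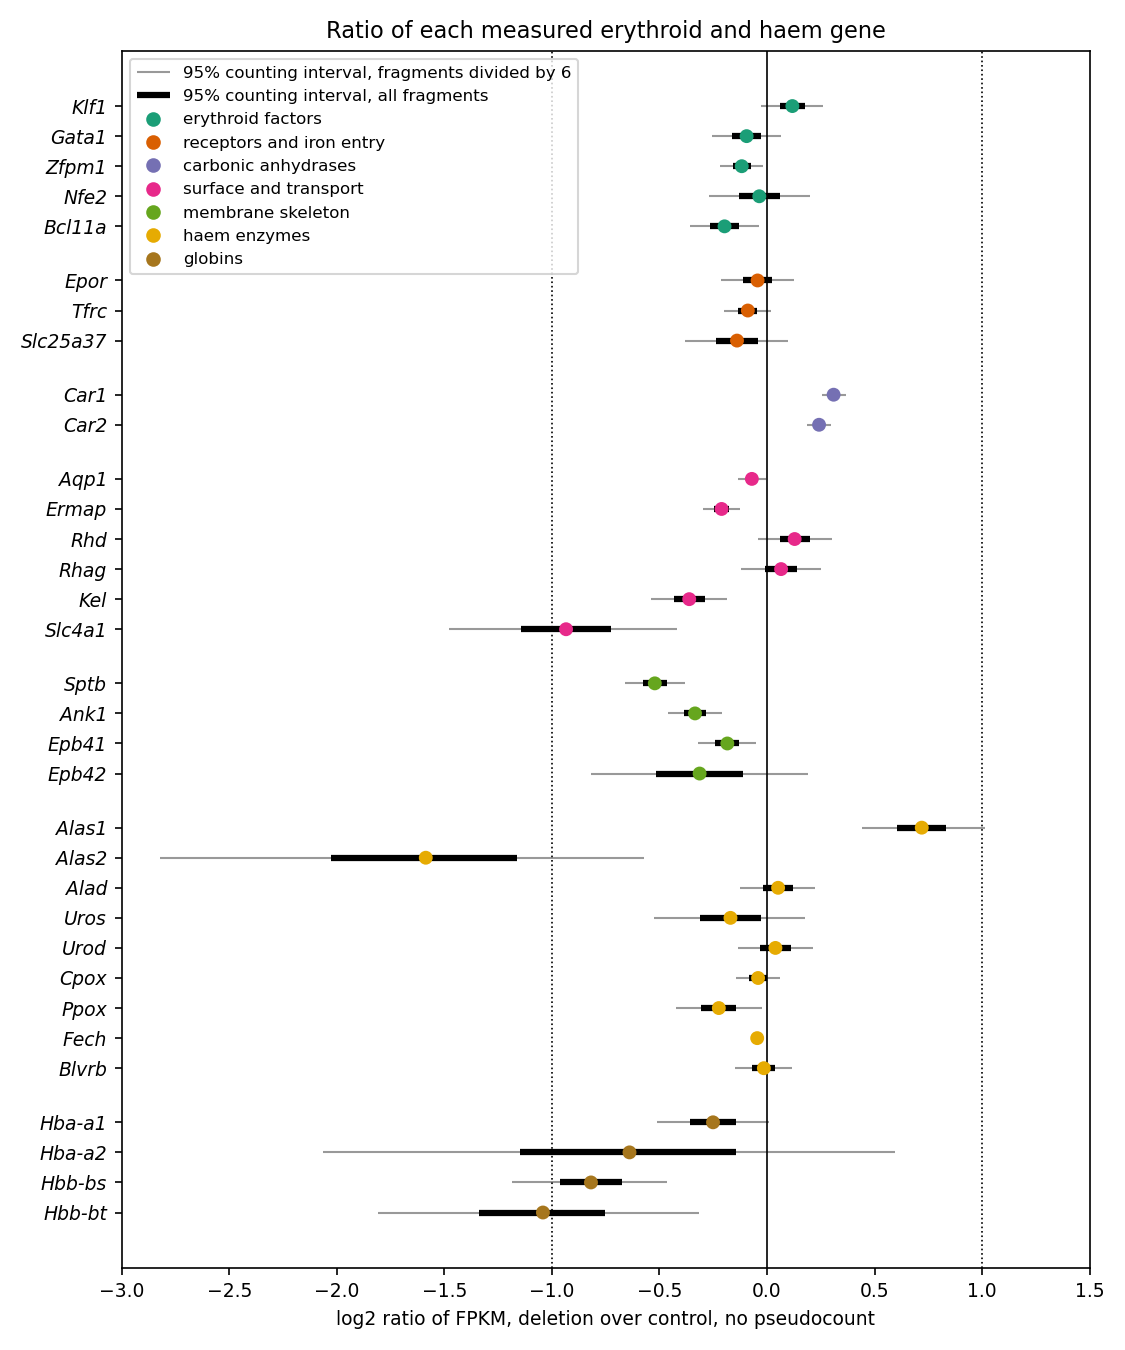
Log2 ratio of FPKM without a pseudocount, deletion over control, for the 33 measured genes, coloured by role. Thick bars are 95% counting intervals from all fragments, thin bars the same with fragments divided by 6, dotted lines mark 2-fold, and Fech has no bar. Car1, Car2 and Alas1 lie to the right of 0 with their thin bars. To the left with theirs lie 13 genes, Alas2, the beta globins, Slc4a1, Sptb, Ank1, Epb41, Kel, Ermap, Aqp1, Zfpm1, Bcl11a and Ppox. The share of all genes with a thin bar clear of 0 is not given here, so this count has no background to be read against.

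Haem is built in a chain of enzyme steps, and the 2 libraries differed mainly in the first. That step, the condensation of glycine with succinyl-CoA, has a housekeeping enzyme, Alas1, and an erythroid one, Alas2. Alas2 (chromosome X, 150547375 to 150570638, plus strand) stood at 1.51 FPKM in the deletion sample and 4.53 FPKM in the control sample, from 61 fragments in the deletion sample and 189 in the control sample. Alas1 (chromosome 9, 106233455 to 106248654, minus strand) stood at 15.5 FPKM in the deletion sample and 9.42 FPKM in the control sample. Alas2 was thus 3.00-fold lower, with an interval of its log2 ratio of -2.03 to -1.16 (-2.82 to -0.57 with fragments divided by 6). Alas1 was 1.65-fold higher, with an interval of 0.60 to 0.83 (0.44 to 1.01). The level of Alas1 was 10.3 times that of Alas2 in the deletion sample and 2.08 times in the control sample.

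The 6 listed enzymes that act after the first step lay between -0.22 and 0.05 on the log2 scale. Alad, which joins 2 molecules of aminolevulinic acid, stood at 103.8 FPKM in the deletion sample and 100.1 FPKM in the control sample. Uros, which closes the ring, stood at 12.8 FPKM in deletion and 14.4 FPKM in control cells, the lowest level of the 6 in both libraries. Urod, the decarboxylase that follows, stood at 74.0 FPKM in deletion and 72.0 FPKM in control cells. The oxidases come next, Cpox at 81.5 FPKM in deletion and 83.9 FPKM in control cells and Ppox at 29.8 FPKM in deletion and 34.8 FPKM in control cells. Fech, which inserts the iron, stood at 72.9 FPKM in deletion and 75.3 FPKM in control cells, and its values did not fall on whole fragments. Blvrb, a biliverdin reductase abundant in red cells, acts in the breakdown of haem and stood at 116.6 FPKM in deletion and 117.8 FPKM in control cells. Ppox, with an interval of -0.42 to -0.02, was the enzyme after the first step whose interval stayed below equality with fragments divided by 6.

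**Figure D3:**
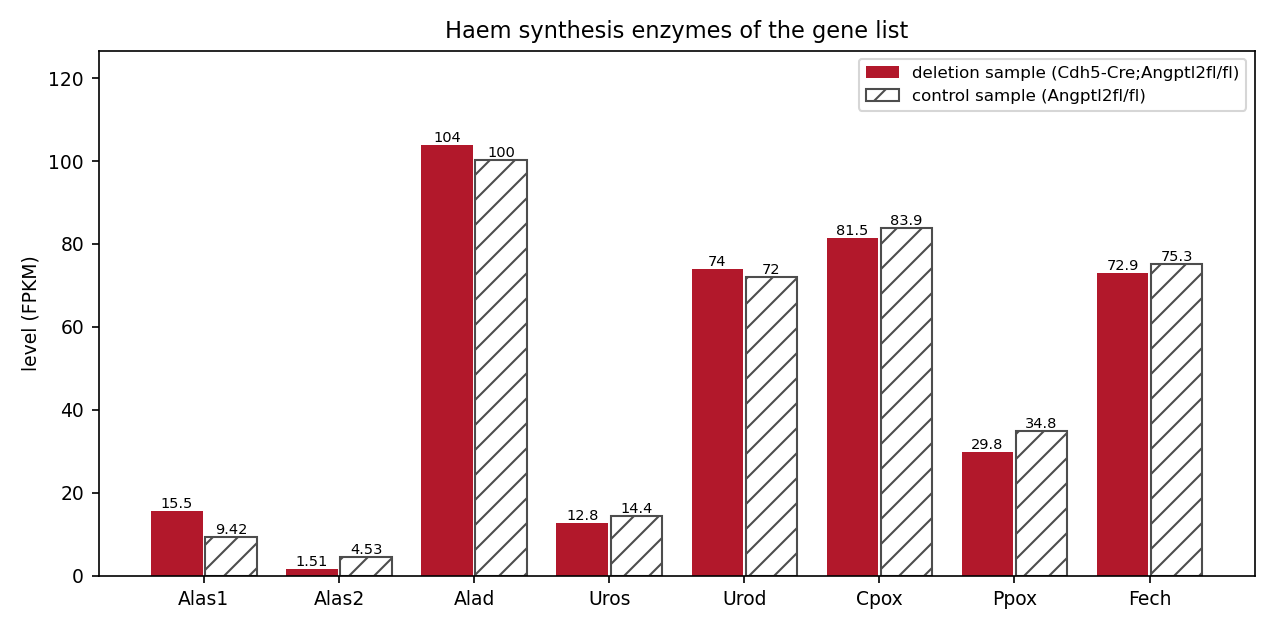
Level (FPKM) of the listed haem synthesis enzymes in the order in which they act, deletion sample left and control sample right in each pair, 1 library each. The 6 enzymes from Alad to Fech have pairs of similar height, whereas in the first step Alas1 is higher and Alas2 lower in the deletion sample.

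The windows from 250 bases before to 50 bases after the start sites of Alas2 and Alas1 are shown because the 2 genes encode the same step and lay on opposite sides of equality (RefSeq, GRCm38.p6). Capitals mark letters that match a GATA motif (AGATA or TGATA followed by A or G) or a KLF motif (CCNCNCCCN), on either strand.
Alas2 (chrX:150547167-150547466, plus strand): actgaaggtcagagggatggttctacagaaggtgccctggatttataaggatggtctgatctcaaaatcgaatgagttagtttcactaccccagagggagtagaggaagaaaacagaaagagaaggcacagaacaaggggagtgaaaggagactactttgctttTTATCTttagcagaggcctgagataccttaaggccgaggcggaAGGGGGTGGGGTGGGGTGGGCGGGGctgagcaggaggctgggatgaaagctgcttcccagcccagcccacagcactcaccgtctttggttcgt
Alas1 (chr9:106247905-106248204, minus strand): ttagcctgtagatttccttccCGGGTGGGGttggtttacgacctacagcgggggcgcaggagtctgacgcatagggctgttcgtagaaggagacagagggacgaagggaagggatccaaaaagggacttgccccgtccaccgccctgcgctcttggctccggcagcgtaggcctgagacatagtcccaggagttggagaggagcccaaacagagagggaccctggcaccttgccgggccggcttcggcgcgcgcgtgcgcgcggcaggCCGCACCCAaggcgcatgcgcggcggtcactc
The Alas2 window held 1 GATA match, starting at position -86 from the start site, and 4 overlapping or adjoining KLF matches starting from -43 to -27. The Alas1 window held 2 KLF matches and no GATA match by these letters, and a second RefSeq start of Alas1 has a window that overlaps this one. At least 1 GATA match was present in 29.8% and at least 1 KLF match in 49.4% of all 32851 promoter windows of the same length. Promoter windows were found for 28 of the 36 genes with a row, 35 windows in all, of which 18 held a GATA match and 24 a KLF match. A match describes the letters and does not show that a factor binds there.

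Adult globin mRNA was lower in the deletion sample, and more so for beta than for alpha globin. Globin genes lie in 2 clusters, alpha on chromosome 11 and beta on chromosome 7, and haemoglobin pairs their products. Hbb-bs (chromosome 7, 103826534 to 103828096, minus strand) stood at 47.5 FPKM in the deletion sample and 83.8 FPKM in the control sample. Hbb-bt (chromosome 7, 103812524 to 103813996, minus strand) stood at 12.2 FPKM in deletion and 25.2 FPKM in control cells. On the log2(FPKM + 1) scale Hbb-bt was at -0.98, inside 2-fold, while its plain ratio was 2.06-fold lower from 145 fragments in deletion and 308 in control cells. The interval of the log2 ratio was -0.96 to -0.68 for Hbb-bs (-1.18 to -0.47 with fragments divided by 6) and -1.34 to -0.75 for Hbb-bt (-1.81 to -0.32). Hba-a1 (chromosome 11, 32283511 to 32284465, plus strand) stood at 98.8 FPKM in the deletion sample and 117.6 FPKM in the control sample, and Hba-a2 at 4.98 FPKM in deletion and 7.76 FPKM in control cells. With fragments divided by 6 the intervals of both alpha copies included equality, at -0.51 to 0.01 and -2.07 to 0.59.

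The copies of each pair are nearly identical, so fragments may have been split between them in either library. Their coding sequences, taken as the longest reading frame of the transcript, differ at 1 base of 429 for the alpha pair and at 1 base of 444 for the beta pair. Of the stretches of 150 bases, the read length, in the Hba-a1 transcript, 48.4% occur in Hba-a2 unchanged, and of those in Hbb-bs 49.9% occur in Hbb-bt. Summed fragments do not depend on such a split, whereas summed FPKM does slightly, since the exon lengths of the copies differ. Alpha globin had 1407 fragments in the deletion sample and 1749 in the control sample, and beta globin had 760 in the deletion sample and 1427 in the control sample. Summed alpha globin stood at 103.8 FPKM in the deletion sample and 125.3 FPKM in the control sample, a log2 ratio of -0.27 with an interval of -0.53 to -0.02 with fragments divided by 6. Summed beta globin stood at 59.8 FPKM in deletion and 109.1 FPKM in control cells, a log2 ratio of -0.87 with an interval of -1.18 to -0.54. The ratio of alpha to beta globin mRNA was 1.74 in the deletion sample and 1.15 in the control sample. Hba-a1 held 95.2% of alpha globin in the deletion sample and 93.8% in the control sample, and Hbb-bs held 79.5% of beta globin in the deletion sample and 76.9% in the control sample. All 4 adult genes together came to 163.6 FPKM in the deletion sample and 234.4 FPKM in the control sample, 1.43-fold lower. Car1 was 9.96 times that sum in the deletion sample and 5.61 times in the control sample.

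The embryonic beta-like genes Hbb-y and Hbb-bh1, which are silenced before birth, had no fragment in either library. For Hbb-y, 0 fragments allows a level of up to 0.28 FPKM in the deletion sample and 0.27 FPKM in the control sample, and for Hbb-bh1 up to 0.29 FPKM in deletion and 0.28 FPKM in control cells.

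**Figure D4:**
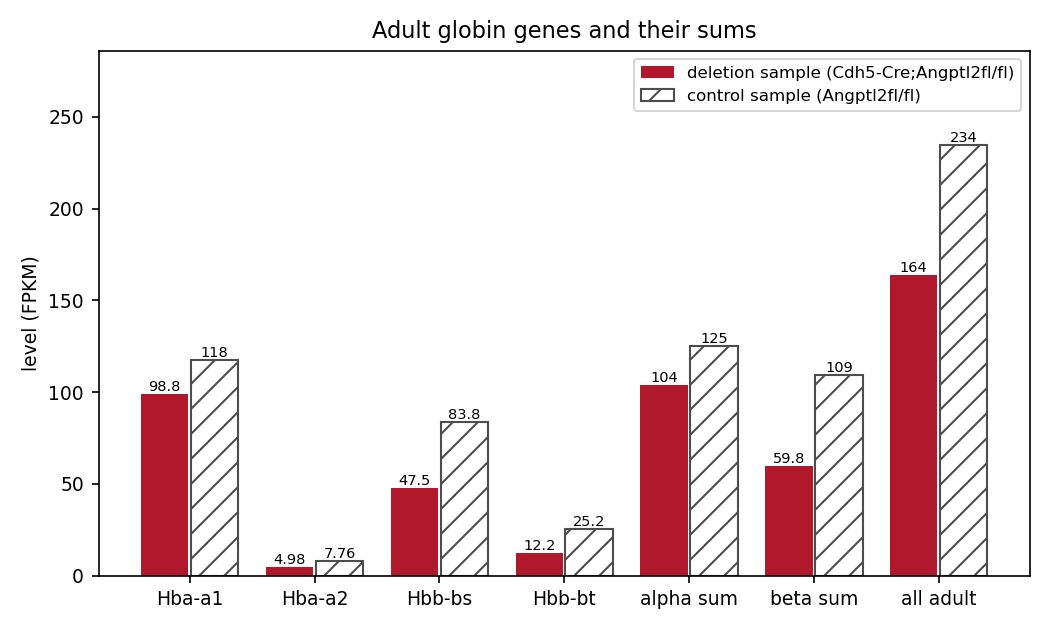
Level (FPKM) of the 4 adult globin genes and of their sums, deletion sample left and control sample right in each pair, 1 library each. Each pair is lower in the deletion sample, and the gap is wider for the beta sum (59.8 FPKM in the deletion and 109.1 FPKM in the control sample) than for the alpha sum (103.8 FPKM in the deletion and 125.3 FPKM in the control sample).

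The promoter windows of the beta globin pair are shown because both copies were lower and KLF1 and GATA1 are known to act on the beta globin genes, with the same windows and motifs as for Alas2.
Hbb-bs (chr7:103827879-103828178, minus strand): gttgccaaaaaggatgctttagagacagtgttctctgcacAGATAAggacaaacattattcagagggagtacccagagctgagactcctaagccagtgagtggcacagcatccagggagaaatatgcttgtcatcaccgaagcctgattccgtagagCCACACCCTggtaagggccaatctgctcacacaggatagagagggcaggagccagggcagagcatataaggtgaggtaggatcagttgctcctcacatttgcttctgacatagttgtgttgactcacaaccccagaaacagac
Hbb-bt (chr7:103813874-103814173, minus strand): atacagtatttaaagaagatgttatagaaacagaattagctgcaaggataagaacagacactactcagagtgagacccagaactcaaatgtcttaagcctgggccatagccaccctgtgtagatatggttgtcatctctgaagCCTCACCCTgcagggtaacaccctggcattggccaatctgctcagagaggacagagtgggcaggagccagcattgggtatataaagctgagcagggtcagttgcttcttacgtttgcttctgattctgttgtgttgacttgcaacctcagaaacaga
Hbb-bs held 1 KLF match, CCACACCCT starting at position -93, and 1 GATA match at -210. Hbb-bt held 1 KLF match, CCTCACCCT at -107, and no GATA match by these letters. Each window also held CCAAT, on the forward strand at -76 in Hbb-bs and at -75 in Hbb-bt, a sequence present on either strand in 37.4% of all promoter windows.

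Other genes of the pathway, in lists that overlap none of the members, mostly lay near equality. Of 93 measured genes in 6 lists none was at least 2-fold higher, 1 was at least 2-fold lower and 61 were below 0, with a median of -0.05. The shares among protein-coding genes were 0.488% higher, 0.752% lower and 52.1% below 0, and among all genes 2.47%, 3.38% and 51.6%. The lower gene was Hmox1, which breaks haem down and is abundant in macrophages, at 4.34 FPKM in the deletion sample and 10.4 FPKM in the control sample. Among 18 other erythroid factors, with a median of -0.07, the ends of the list were Sox6, a repressor of embryonic globin, at 1.27 FPKM in deletion and 1.96 FPKM in control cells and Lyl1, a relative of the stem cell factor Tal1, at 61.9 FPKM in deletion and 51.0 FPKM in control cells. Foxo3, a factor of oxidative stress defence in erythroid cells, stood at 18.6 FPKM in deletion and 21.7 FPKM in control cells. Myb, which keeps progenitors dividing, stood at 59.3 FPKM in deletion and 54.5 FPKM in control cells. Myb was below 0, at -0.03, when both samples were set to the same total.

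Erythropoietin signalling had 8 of 11 measured genes below 0, where 52.1% of protein-coding genes were, and a median of -0.14. The lowest were inhibitors of JAK2 signalling, Sh2b3 at 12.9 FPKM in the deletion sample and 16.2 FPKM in the control sample, and Socs3 at 14.7 FPKM in deletion and 18.0 FPKM in control cells. The highest were Ptpn6, a phosphatase that shuts off the erythropoietin receptor, at 48.5 FPKM in deletion and 45.4 FPKM in control cells, and Grb2, an adaptor, at 69.7 FPKM in deletion and 66.6 FPKM in control cells. Both were below 0 when both samples were set to the same total. Iron handling, with 19 measured genes, had a median of -0.02. Toward its ends stood Tfr2, the second transferrin receptor, at 82.1 FPKM in deletion and 96.5 FPKM in control cells, Hscb, a co-chaperone of iron-sulphur cluster assembly, at 37.7 FPKM in deletion and 26.8 FPKM in control cells, and Hfe, which binds the transferrin receptor, at 1.48 FPKM in deletion and 0.72 FPKM in control cells.

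The other haem genes, 13 measured, had a median of -0.01. After Hmox1 the lowest was Slc25a38, the mitochondrial glycine carrier that supplies the first step, at 34.7 FPKM in the deletion sample and 41.1 FPKM in the control sample. The highest were Hebp1, a haem-binding protein, at 22.6 FPKM in deletion and 19.0 FPKM in control cells and Flvcr1, a haem exporter, at 7.35 FPKM in deletion and 6.26 FPKM in control cells. Other red cell membrane genes, 17 measured, had a median of -0.05. Dmtn (dematin, which bundles actin under the membrane) was lowest at 1.11 FPKM in deletion and 2.21 FPKM in control cells, followed by Slc2a1, a glucose transporter, at 4.05 FPKM in deletion and 5.48 FPKM in control cells. Among the highest was Cd59a, an inhibitor of complement, at 8.95 FPKM in deletion and 7.63 FPKM in control cells.

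Late erythroid genes, 15 measured, had a median of -0.18. Of the 15, 10 were below 0, where 52.1% of protein-coding genes were. None was past 2-fold, where 1.24% of protein-coding genes were in either direction. Trim10, needed for terminal erythroid differentiation in mouse cells, stood at 7.51 FPKM in the deletion sample and 11.0 FPKM in the control sample, and Tent5c, a poly(A) polymerase, at 4.03 FPKM in deletion and 6.08 FPKM in control cells. With fragments divided by 6 their intervals, -1.13 to -0.02 and -1.05 to -0.14, stayed below equality. Among the highest was Gpx1 (glutathione peroxidase 1) at 687.6 FPKM in deletion and 627.3 FPKM in control cells. Gpx1 was below 0 when both samples were set to the same total.

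**Figure D5:**
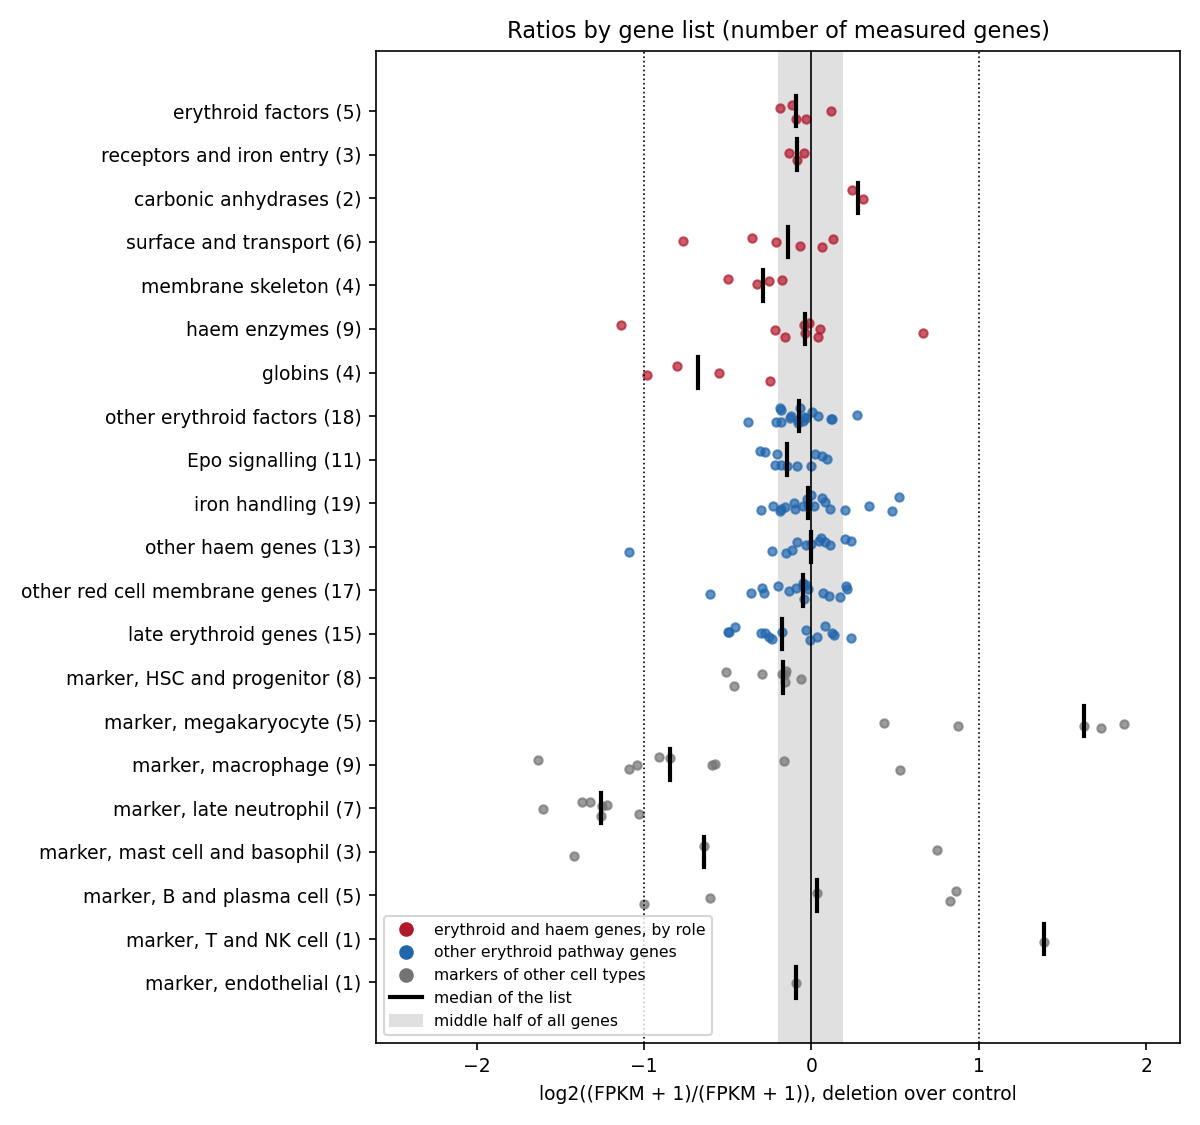
Log2((FPKM + 1)/(FPKM + 1)), deletion over control, of each measured gene by list, with the median of each list as a black bar and the range between the quartiles of all genes shaded. The medians of the globins and the membrane skeleton lie left of the shaded band and that of the carbonic anhydrases right of it, while those of late neutrophil and macrophage markers lie further left and that of megakaryocyte markers further right. Hmox1 is in 2 of the lists drawn.

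Markers of late neutrophils, macrophages and megakaryocytes had median log2 ratios of -1.26, -0.84 and 1.63, further from 0 than the median of the erythroid and haem genes. All 7 late neutrophil markers were at least 2-fold lower in the deletion sample, where 0.752% of protein-coding genes were. Their summed levels were 418 FPKM in the deletion sample and 1072 FPKM in the control sample, led by Ngp and Camp. Of 10 markers of macrophages, the cells that surround erythroblasts in the marrow, 9 were measured. Of these markers 8 were below 0, against 52.1% of protein-coding genes. Their sums were 29.8 FPKM in the deletion sample and 53.8 FPKM in the control sample. By the mean of both samples Hmox1 and Cd68 were the most abundant, while Vcam1, an adhesion molecule, was the 1 marker above 0, at 5.78 FPKM in deletion and 3.69 FPKM in control cells, and Csf1r, the receptor that defines the lineage, was at 0.75 FPKM in deletion and 4.44 FPKM in control cells. All 5 measured megakaryocyte markers were above 0, where 52.1% of protein-coding genes were below it. The sums of the list were 148.9 FPKM in deletion and 56.1 FPKM in control cells, led by Pf4 and Itga2b. Gp1bb had 0 fragments in the deletion sample and 1 in the control sample. Of 9 HSC and progenitor markers 8 were measured. All 8 were below 0, against 52.1% of protein-coding genes, with a median of -0.17. The sums of that list were 97.9 FPKM in deletion and 112.4 FPKM in control cells. Sums were 11.0 FPKM in deletion and 19.6 FPKM in control cells for mast cell and basophil markers, 32.7 FPKM in deletion and 38.1 FPKM in control cells for B and plasma cell markers and 78.0 FPKM in deletion and 29.4 FPKM in control cells for T and NK cell markers. In the T and NK cell list Nkg7, a granule protein of cytotoxic cells, held nearly the whole sum, and Cd3e, Cd3g and Cd3d had 0 fragments in the deletion sample and 6, 7 and 2 in the control sample. Endothelial markers summed to 4.04 FPKM in deletion and 4.64 FPKM in control cells, with Cdh5 at 0 fragments in the deletion sample and 2 in the control sample. The part of these differences in those of the globins, Alas2 and Slc4a1 was not tested.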

How the data were processed

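RNA from bone marrow HSCs of 2 genotypes, 1 library each, was purified on columns after TRIzol lysis and read from both ends for 150 bases, per the labels' protocols. How HSCs were isolated was not stated in the labels. The authors deposited FPKM for 54531 Ensembl genes. Per the submitters' processing notes, the tools and builds include Bowtie 0.12.2 and mm8. What each was used for, and the program that counted fragments, is not given in the sources used here. By its description, the control column was matched to its sample.

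Symbols matched 54408 and GENCODE M21 exon lengths (GRCm38) 54494 identifiers, so positions are those of GRCm38. FPKM times exon length fell within 0.02 of a whole number of fragments for 96.1% of detected genes in the deletion sample and 96.5% in the control sample, which gave depths and fragment numbers. FPKM depends on each library's total: mitochondrially encoded genes took 13.7% of it in the deletion sample and 8.91% in the control sample. Ratios use a pseudocount of 1 FPKM, which understates differences of low genes, and the minimum for a gene to be counted is a mean of 1 FPKM. Intervals are exact Clopper-Pearson at 95% (scipy 1.17.1). The computation was tested on simulated data. Besides the members, the 2 highest and 2 lowest genes of each further list are named, with the 2 most abundant markers by mean level, Csf1r and Vcam1, except for a few genes that are not reported here. Genes, lists and alternatives were chosen with earlier results of these data known, and the division by 6 after seeing the data.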

Additional observations from a re-analysis of the deposited data

How the results depend on the processing

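With 1 library per genotype, differences between mice and between libraries cannot be told apart, and depth limits Alas2 and Hba-a2 most, at 61 and 56 fragments in the deletion sample. No paired analysis was possible because each genotype has 1 library. The count of members at least 2-fold lower, 1 as reported, was 2 with a pseudocount of 0.1, when both samples were set to the same total and with scaling without mitochondrially encoded genes, where Hbb-bt joined Alas2. It was 0 with a pseudocount of 5, with a minimum mean of 5 FPKM, with a minimum mean of 200 fragments (chosen after seeing the data) and at a threshold of 4-fold. At 1.5-fold it was 4 lower (Hbb-bs, Hbb-bt, Slc4a1 and Alas2) and 1 higher (Alas1). The share of all genes past 1.5-fold is not given here, so these 1.5-fold counts have no background to be read against. Setting the same total moved the median of all genes by -0.15, and put the median of the carbonic anhydrases, 0.28 as deposited, at 0.13. Scaling without mitochondrially encoded genes put that median at 0.21. The median over all measured members stayed below 0 under every alternative run, from -0.25 at the same total to -0.09 with a minimum mean of 5 FPKM. Summing the globin copies, added after seeing the data, also gave -0.09. The summed adult globin ratio, 0.70 as deposited, was 0.63 and 0.67 under the 2 rescalings.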
